A study of Mus musculus with 8 samples.

Results

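The glycolysis and hypoxia genes are a list of 34 mouse genes given by symbol. They comprise glucose transporters, enzymes of glycolysis, enzymes that steer glucose flux, the oxygen-sensing machinery and well-known targets of the hypoxia-inducible factor (HIF). A gene was read through the probe sets annotated to its symbol alone, and among several the one of highest mean, taken over all 8 arrays, stood for the gene. That gave 32 of the 34 genes, among 12394 genes kept in the same way. Eno1 and Gpi1 had no probe set of a single symbol and were not analysed here, and Gapdh was read only through the array's control probe sets.

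The study used J1, a single mouse embryonic stem cell line, kept on gelatin in serum with leukemia inhibitory factor (LIF), a cytokine that holds such cells undifferentiated, and read RNA on Affymetrix arrays. Each of 4 groups had 2 arrays. One group carried a control hairpin (shControl), the next groups carried shRNA1 or shRNA2, both directed at the F-box protein gene Fbxl19, and the last was differentiated and taken on day 4. The study's question was what loss of Fbxl19 does to stem cell expression. The first 3 groups are called undifferentiated here, and arrays are numbered replicate 1 and replicate 2 as in the sample titles. The labels give the same growth medium, LIF included, for all samples, and leave unstated the differentiation method, the way hairpins were delivered, and any hairpin in the day 4 cells. One description field of the knockdown samples names Fbxl genes of rising number, but their titles and source names read Fbxl19, which was used here.

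Glycolysis splits glucose to pyruvate in the cytosol, and lactate dehydrogenase can turn the pyruvate to lactate, so that energy is gained without oxygen. HIF is a pair of proteins whose alpha subunit is hydroxylated by prolyl hydroxylases when oxygen is present and is then destroyed. When oxygen falls the alpha subunit persists, and HIF binds sites with the core ACGTG or GCGTG near its target genes. These include most glycolytic enzymes, glucose transporters, some of the prolyl hydroxylases themselves and genes of mitochondrial turnover, collagen modification and blood vessel growth. Embryonic stem cells rely strongly on glycolysis, also in normal oxygen.

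All values are log2 expression as deposited, and a difference of 1 on that scale is a doubling. Fbxl19 had 0 annotated probe sets, and the knockdown itself was therefore not checked. Nothing in the labels tells whether replicates are separate cultures, and the p-values thus reflect only array-to-array spread, possibly technical. The lower quartile of an array lay between 3.79 and 3.90, the lowest being that of shControl replicate 2, which also had the highest median, 5.81, where the other 7 arrays had 5.70 to 5.76. As a sign of RNA quality, the actin control probe sets had a 3'-to-5' difference of 0.60 and 0.54 for shControl, between 0.70 and 0.76 for the knockdown groups, and 0.73 and 0.65 for day 4. Among 10 pluripotency markers the mean level was 11.44 to 11.58 on the 6 undifferentiated arrays, and 9.65 and 10.27 on day 4, where 7 of the 10 fell. Markers of fibroblasts averaged 4.03 to 4.22 and those of primitive endoderm 4.15 to 4.67 over all arrays. Each of these lists had 1 marker called higher on day 4 (Col1a2 by 0.70, Dab2 by 1.04) and 1 lower (Thy1, -1.13, and Lama1, -2.56). The trophoblast markers averaged 5.52 to 5.82 in undifferentiated cells and 6.42 and 6.43 on day 4, but they did not move together. Of the 6, 3 were called higher on day 4 (Krt8 by 2.89, Eomes by 2.82, Cdx2 by 0.66) and 1 lower (Tfap2c, -2.20). The mesoderm and neural markers averaged 5.60 to 5.92 in undifferentiated cells and 5.62 and 5.64 on day 4. Of the 7 measured, 1 was called higher on day 4 (Nes by 0.59) and 2 lower (Kdr, -0.84, and Tubb3, -0.72). In bulk RNA, fewer cells expressing a gene and less RNA per cell cannot be told apart.

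**Figure D1:**
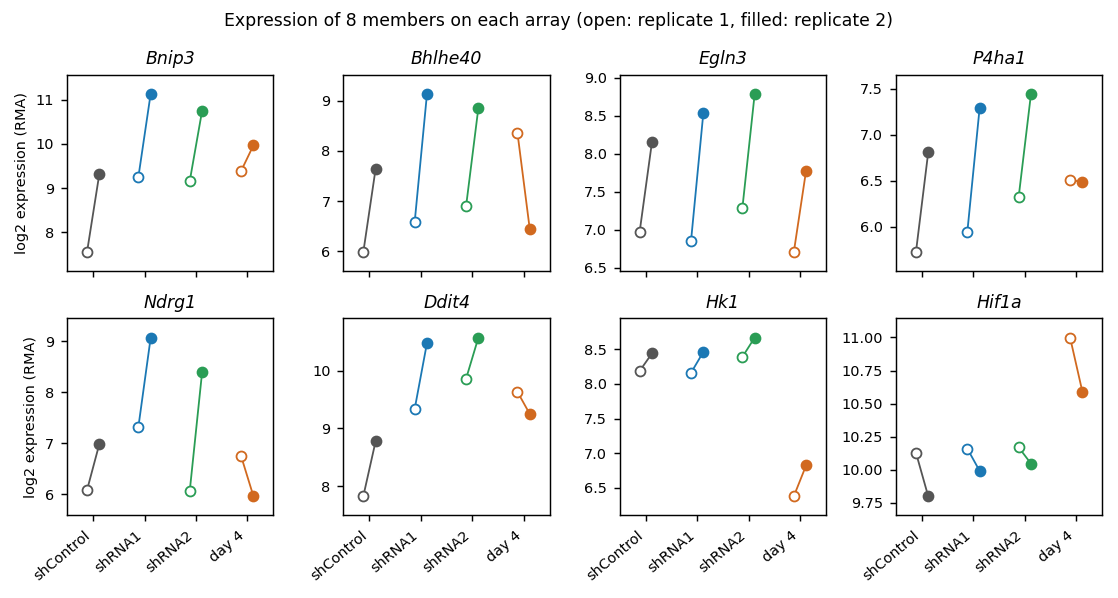
Log2 expression (RMA, y axis) of 8 of the genes on every array, by group (x axis), with an open point for replicate 1 and a filled point for replicate 2 joined by a line. These genes were chosen after their values were seen. Bnip3, Bhlhe40, Egln3, P4ha1, Ndrg1 and Ddit4 stood higher on replicate 2 in each undifferentiated group, whereas Hk1 and Hif1a separated day 4 from the rest.

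Within the undifferentiated cells, many of the glycolysis and hypoxia genes differed by replicate number. The comparison asks whether arrays with the same number resemble each other, and set the 3 replicate 2 arrays (shControl, shRNA1, shRNA2) against the 3 replicate 1 arrays with a mean for each group in the model. Day 4, another cell state whose replicate differences did not correlate with the others, was left out. A fit that included it called 2 of the 32 genes, as given below. Of the 32 genes, 15 were higher on replicate 2 (limma, adjusted over all 12394 genes) and none was lower, against 0.904% of all genes called and 0.863% called higher. Bnip3, Bhlhe40 and Egln3 had the 3 smallest p-values of all genes tested. The median over the 32 genes was 0.54, against 0.01 over all genes, and 30 of the 32 lay above 0, against 52.8% of all genes. On 20 of the 32, every replicate 2 array stood above every replicate 1 array, as on 8.96% of all genes. The list was chosen with earlier results of these data known. Its shares beside those of all genes, here and below, therefore describe the list and are no independent support.

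The number of calls depended on how many pairs were fitted and on how the arrays were scaled. The fit has 2 residual degrees of freedom, and limma added 7.83 from the spread of all genes, so the errors rest mostly on that shared estimate. Without either shControl array only the 2 knockdown pairs remain, with 1 residual degree of freedom, and 3 genes were called: Egln3, Adm and Vegfa. The 13 genes that lost their call then differed by 0.62 to 2.26, with adjusted p of 0.0597 to 0.133, and 11 of the 13 differed by more than with all pairs. Bnip3 had 1.74 and Bhlhe40 2.26. Centring each array on its median left 6 of the 15, and repeating the quantile normalization left 9. When the day 4 pair was added, 2 remained, Egln1 and Egln3. Without a shRNA1 or shRNA2 array, 14 and 16 genes were called, but limma then gave all genes 1 common variance, so these counts are no sign of stability.

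Both oxygen sensors were higher on replicate 2. Egln3, a prolyl hydroxylase that marks HIF for destruction, read 6.97 and 8.15 in shControl (replicate 1, then replicate 2), 6.85 and 8.53 with shRNA1, and 7.28 and 8.79 with shRNA2. Every replicate 2 array was high, with no overlap, and the difference was 1.46 ± 0.12 (SE, 3 arrays against 3; limma adjusted p = 0.00097). On day 4 it read 6.70 and 7.78, a step of 1.08 in the same direction. Egln1, the related hydroxylase that sets HIF levels in most cells, read 6.66 and 7.45, 6.82 and 7.88, and 6.68 and 7.63 in the same groups, with replicate 2 higher by 0.93 ± 0.10 (adjusted p = 0.00408). Its day 4 arrays, 6.97 and 7.98, again differed by 1.02. Hif1a, which encodes the oxygen-regulated HIF subunit, went the other way without being called. It read 10.13 and 9.80, 10.16 and 9.99, and 10.17 and 10.05, so that all 3 replicate 2 arrays were the lower (-0.21 ± 0.10, adjusted p = 0.394).

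Glucose transporters and most glycolytic enzymes moved by less. Slc2a1, the main glucose carrier of many cells, read 11.58 and 11.75 in shControl, 11.93 and 12.58 with shRNA1 and 12.01 and 12.67 with shRNA2, and its arrays overlapped between replicate numbers (0.49 ± 0.12, adjusted p = 0.107). Slc2a3, the high-affinity carrier, ran from 11.95 to 12.71 over the same arrays, with a difference of 0.37 (adjusted p = 0.138). Of 13 glycolytic enzymes, 3 were called, and the median over the 13 was 0.37. Aldoc, an aldolase, read 7.04 and 7.74, 8.03 and 8.99, and 7.65 and 8.49, with replicate 2 higher by 0.83 ± 0.10 (adjusted p = 0.00602). Replicate 2 was higher in each pair, though shRNA1 replicate 1 lay above shControl replicate 2. Pfkp, the platelet form of phosphofructokinase, read 9.58 and 10.09, 10.03 and 10.68, and 9.97 and 10.67, with replicate 2 higher by 0.62 ± 0.10 (adjusted p = 0.024). Its arrays did not overlap. Pfkl, the liver form, read 6.98 and 7.35, 7.08 and 7.95, and 7.37 and 7.95, with replicate 2 higher by 0.61 ± 0.12 (adjusted p = 0.0475). Its arrays overlapped slightly (7.37 against 7.35), and the call was lost without either shRNA1 array.

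The other 10 enzymes did not pass the test on the probe set kept. Triosephosphate isomerase (Tpi1) differed by 0.48, phosphoglycerate kinase (Pgk1) by 0.44, the aldolase Aldoa by 0.39 and hexokinase Hk2 by 0.37, with adjusted p between 0.0633 for Tpi1 and 0.132 for Hk2. Hexokinase Hk1 differed by 0.28, lactate dehydrogenase Ldha by 0.27 and pyruvate kinase Pkm by 0.20. Each of these 7 was higher on replicate 2 in all 3 undifferentiated pairs, as was Gapdh. Gapdh differed by 0.061, phosphoglycerate mutase (Pgam1) by 0.074 and the muscle phosphofructokinase (Pfkm) by 0.042. Ldha, for instance, read 12.37 and 12.54, 12.12 and 12.52, and 12.32 and 12.56. Pkm read 10.80 and 10.97, 10.70 and 10.94, and 10.82 and 11.01, and Gapdh lay between 13.27 and 13.37 on the undifferentiated arrays. For Ldha the arrays of the replicate numbers did not overlap, but the difference was not called (limma adjusted p = 0.271).

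The regulators of glucose flux split. Pfkfb3, which makes the sugar phosphate that activates phosphofructokinase, read 4.16 and 4.92, 4.22 and 5.22, and 4.57 and 5.39, with replicate 2 higher by 0.86 ± 0.10 (limma adjusted p = 0.00579). Pdk1, a kinase that keeps pyruvate out of mitochondria by inhibiting pyruvate dehydrogenase, read 10.73 and 9.88 in shControl but 10.84 and 11.00 with shRNA1 and 10.41 and 10.83 with shRNA2. The step was -0.85 in shControl but 0.17 and 0.42 in the knockdown pairs, giving -0.09 ± 0.20 in all (adjusted p = 0.885). Without either shControl array its difference was 0.29. A second probe set of Pdk1 had 0.16.

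Bhlhe40, a transcription repressor induced by HIF, showed the widest step of the list. It read 5.98 and 7.64 in shControl, 6.58 and 9.14 with shRNA1 and 6.90 and 8.86 with shRNA2, with replicate 2 higher by 2.06 ± 0.15, or 4.17-fold (limma adjusted p = 0.000712). The lowest replicate 2 array, that of shControl, still lay above all replicate 1 arrays. Mxi1, a repressor that competes with Myc for its partner Max, read 7.96 and 8.19, 7.82 and 8.25, and 8.11 and 8.38. It differed by 0.31 ± 0.10 and was not called (adjusted p = 0.201).

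Of the 4 stress and mitochondrial genes, 3 were higher on replicate 2, among them the gene with the smallest p-value of all. Bnip3, a mitochondrial outer membrane protein that marks mitochondria for removal, read 7.55 and 9.31 in shControl, 9.25 and 11.13 with shRNA1 and 9.16 and 10.74 with shRNA2. All replicate 2 arrays exceeded all replicate 1 arrays, by 1.75 ± 0.10 or 3.36-fold (limma adjusted p = 0.000178). Ndrg1, a stress-response gene, read 6.08 and 6.98, 7.32 and 9.07, and 6.07 and 8.39, with replicate 2 higher by 1.66 ± 0.21 (adjusted p = 0.00669), with shRNA1 replicate 1 above shControl replicate 2. Ddit4, an inhibitor of mTOR signalling, read 7.82 and 8.78, 9.34 and 10.48, and 9.86 and 10.58, with replicate 2 higher by 0.94 ± 0.11 (adjusted p = 0.00579). For Ddit4 the groups lay further apart than the replicate numbers. Higd1a, a small protein of the mitochondrial inner membrane, ran from 10.79 to 11.26 and differed by 0.15 (adjusted p = 0.524).

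Of the secreted signals, Adm was called and Vegfa was not. Adm, the vasodilator peptide adrenomedullin, read 3.46 and 4.35, 4.03 and 5.76, and 4.20 and 5.80, with replicate 2 higher by 1.41 ± 0.15 (limma adjusted p = 0.00364). Its lowest value lay under the lower quartile of its array, so the size of that step is uncertain. Vegfa, the vascular growth factor, read 5.56 and 5.71, 5.48 and 6.78, and 5.66 and 7.03, and differed by 0.94 ± 0.20 (adjusted p = 0.074). Its arrays did not overlap, but the step was 0.15 in shControl against 1.30 and 1.38 in the knockdown groups. A dim second probe set of Vegfa had 0.11.

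All 4 genes of collagen modification and secretory folding were higher on replicate 2. P4ha1, a catalytic subunit of collagen prolyl hydroxylase, read 5.72 and 6.81, 5.94 and 7.29, and 6.33 and 7.45, with replicate 2 higher by 1.19 ± 0.10 (limma adjusted p = 0.00102). P4ha2, its paralogue, read 5.38 and 6.42, 5.67 and 6.82, and 6.06 and 7.12, with replicate 2 higher by 1.08 ± 0.10 (adjusted p = 0.00105). The steps ran from 1.09 to 1.35 for P4ha1 and from 1.03 to 1.15 for P4ha2, and neither gene's arrays overlapped. Ero1a, an oxidase that forms disulfide bonds in the endoplasmic reticulum, read 6.96 and 7.52, 7.30 and 8.21, and 7.25 and 8.15 (0.79 ± 0.11, adjusted p = 0.0123). Plod2, the collagen lysyl hydroxylase, read 6.78 and 7.31, 6.94 and 7.66, and 7.45 and 7.96 (0.59 ± 0.10, adjusted p = 0.0294). The arrays of Ero1a did not overlap, while those of Plod2 did, and its call was lost without either shRNA1 array.

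**Figure D2:**
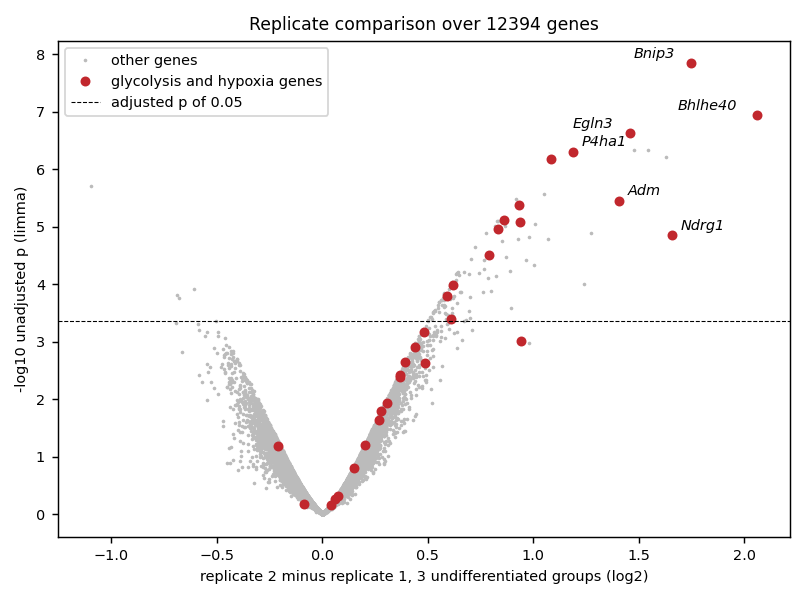
Difference between replicate 2 and replicate 1 over the 3 undifferentiated groups (log2, x axis) against the unadjusted limma p (-log10, y axis) for 12394 genes, with the 32 glycolysis and hypoxia genes as large red points and the adjusted p of 0.05 as a dashed line. The 15 red points above the line all lie to the right, with Bnip3 at the top.

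Other probe sets of these genes mostly had the same sign, but fewer were called. The 32 genes had 69 probe sets of a single symbol, and 21 of the 69 were called when all 20393 single-symbol probe sets were tested, against 0.603% of those. Of the 21, 14 were the ones kept. Of the 37 others, 32 lay above 0 and 7 were called, and of the 14 others that belong to the 15 called genes, 4 were called (Egln1, Egln3 and 2 of Ndrg1). Those of Ero1a (0.46 and 0.58), Pfkl (0.49), Pfkp (0.50) and Plod2 (0.50) were not. The second probe set of Egln3 differed by 1.24, that of Egln1 by 0.85, and the other 4 of Ndrg1 by 0.42 to 1.91. The other 2 probe sets of Slc2a1 differed by 0.63 and 0.74, both called, whereas the one kept was not. Likewise, 1 other probe set of Tpi1 was called (0.59, limma adjusted p = 0.0419), while a further one (0.45) and the one kept were not. Averaging the probe sets of each gene also called 15 genes, with Slc2a1 and Tpi1 gained and Aldoc and Pfkfb3 lost. Dim alternative probe sets of Aldoc (0.07), Pfkfb3 (-0.15) and P4ha1 (0.43) differed by over 0.5 from the ones kept, and their means were 2.62, 3.70 and 3.43.

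On day 4 the replicate numbers showed no common direction. The differences between replicates were positive for 15 and negative for 17 of the 32 genes, whereas 28 of the 32 were positive in each undifferentiated group. The matching shares of all genes were not counted. In a test added after the data were seen, the day 4 difference was set against that of the undifferentiated groups, and 14 of the 32 genes were called, all lower on day 4, against 5.61% of all genes (limma). That test rests on a single day 4 pair, whose own spread is unknown, so its error comes wholly from the agreement among the undifferentiated pairs and its p-values may be too small. Bhlhe40 read 8.36 and 6.44 on day 4, so its step of -1.92 opposed the undifferentiated 2.06 (difference -3.98 ± 0.31, adjusted p = 0.000152). Vegfa read 6.25 and 4.73 and Ndrg1 6.75 and 5.96, with differences of -2.46 and -2.44. Ero1a read 8.22 and 7.41 and Slc2a3 12.77 and 11.74, with differences of -1.59 and -1.39. Egln1, Egln3 and Aldoc were higher on replicate 2 on day 4 as in the other groups, and their differences were not called (adjusted p = 0.873, 0.417 and 0.71).

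**Figure D3:**
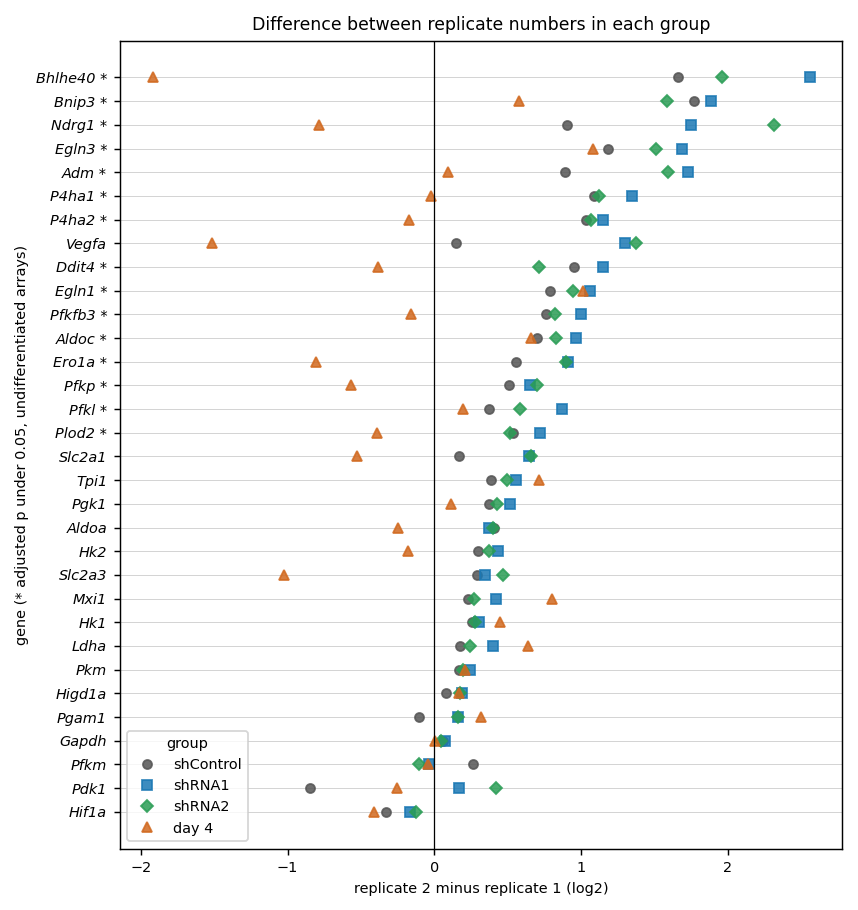
Replicate 2 minus replicate 1 (log2, x axis) for each of the 32 genes (y axis, ordered by the mean over the undifferentiated groups, with an asterisk where called) in shControl, shRNA1, shRNA2 and day 4. The undifferentiated groups lie together on the right for most genes, while day 4 reaches -1.92 for Bhlhe40 and -1.52 for Vegfa.

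Across arrays, the median of the 32 genes summarises this. Relative to each gene's mean over the undifferentiated arrays it was -0.47 and -0.04 in shControl, -0.22 and 0.44 with shRNA1, -0.16 and 0.47 with shRNA2, and -0.03 and -0.09 on day 4. The same median over all genes stayed between -0.02 and 0.04. Marker levels are given beside it. The pluripotency markers averaged 11.44 to 11.54 on replicate 1 and 11.49 to 11.58 on replicate 2 with none of 10 called, while 1 of 8 fibroblast markers (Pdgfrb, 1.07) and 1 of 6 trophoblast markers (Eomes, 0.64) were higher on replicate 2, and 0 of 7 primitive endoderm and 0 of 7 mesoderm and neural markers were called. Their part in the result was not tested. The actin 3'-to-5' difference did not follow the replicate number. Whether a replicate number marks a shared culture day, hybridization or other batch is not given in the labels, and its part was not tested.

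The upstream sequence of the genes with the smallest p is shown because HIF binds the cores ACGTG and GCGTG. Windows run from 250 bases before to 50 bases after the annotated start, 5′ to 3′ on the gene's own strand, from RefSeq on build GRCm38.p6. Capitals mark ACGTG or GCGTG on either strand (CACGT or CACGC where the core lies on the opposite strand; CACGTG holds ACGTG on both strands). The first 4 are members with the smallest replicate p that had an entry, and Ddit4 had the largest rise in knockdown.
Bnip3, chr7:138909457-138909756, minus strand: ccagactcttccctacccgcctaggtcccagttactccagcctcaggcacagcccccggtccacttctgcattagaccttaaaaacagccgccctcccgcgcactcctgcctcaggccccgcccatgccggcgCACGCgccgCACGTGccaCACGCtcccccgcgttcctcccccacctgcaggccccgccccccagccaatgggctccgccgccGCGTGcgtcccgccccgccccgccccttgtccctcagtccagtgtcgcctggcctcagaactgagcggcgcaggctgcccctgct
Egln3, chr12:54203825-54204124, minus strand: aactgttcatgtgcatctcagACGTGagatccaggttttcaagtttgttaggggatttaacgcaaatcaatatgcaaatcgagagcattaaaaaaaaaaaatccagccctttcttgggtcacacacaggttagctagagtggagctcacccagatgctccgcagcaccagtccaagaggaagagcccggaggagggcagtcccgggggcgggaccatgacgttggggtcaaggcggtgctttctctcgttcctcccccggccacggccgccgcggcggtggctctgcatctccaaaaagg
P4ha1, chr10:59323046-59323345, plus strand: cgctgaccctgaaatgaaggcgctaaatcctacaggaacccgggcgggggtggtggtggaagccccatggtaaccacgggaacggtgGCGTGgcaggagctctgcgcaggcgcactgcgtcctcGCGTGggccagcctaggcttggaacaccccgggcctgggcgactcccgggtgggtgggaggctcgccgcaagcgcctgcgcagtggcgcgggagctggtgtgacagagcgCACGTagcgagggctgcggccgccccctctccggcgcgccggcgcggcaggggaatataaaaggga
P4ha2, chr11:54100674-54100973, plus strand: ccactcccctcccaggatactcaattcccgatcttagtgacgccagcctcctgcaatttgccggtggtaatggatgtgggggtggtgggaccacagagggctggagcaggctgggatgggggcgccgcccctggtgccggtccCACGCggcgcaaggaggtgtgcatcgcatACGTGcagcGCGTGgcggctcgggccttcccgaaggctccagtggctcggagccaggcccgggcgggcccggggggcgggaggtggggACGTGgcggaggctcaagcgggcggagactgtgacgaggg
Ddit4, chr10:59951721-59952020, minus strand: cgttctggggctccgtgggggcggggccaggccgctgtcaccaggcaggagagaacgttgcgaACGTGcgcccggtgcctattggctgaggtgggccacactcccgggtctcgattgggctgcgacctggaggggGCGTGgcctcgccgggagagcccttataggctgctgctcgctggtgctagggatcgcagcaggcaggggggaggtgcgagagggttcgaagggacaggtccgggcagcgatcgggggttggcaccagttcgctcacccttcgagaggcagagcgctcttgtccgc

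The Bnip3 window held 2 matches of ACGTG, both within a CACGTG, and 3 of GCGTG. That of Egln3 held a single ACGTG and no GCGTG. P4ha1 held 1 ACGTG and 2 GCGTG, P4ha2 held 2 of each and Ddit4 1 of each. Over the list, 28 of the 32 genes had 42 windows, and Bhlhe40, Slc2a3, Ndrg1 and Plod2 had none. ACGTG lay in 64.3% of the 42 windows, against 23.4% of the 12567 windows of all genes tested. GCGTG lay in 54.8% against 45.3%, and either core in 81.0% against 56.6%. The list was chosen to hold well-known HIF targets, so higher shares could come from that choice alone and are no result of these arrays. Either core lay in all 14 windows of the 12 genes called by replicate number that had an entry, and in 20 of the 28 windows of the 16 others. These windows are not separate genes, since several genes have more than 1. Among the 16 others, only Tpi1 had no core in any window, so counted by gene the groups hardly differed. By window, GCGTG had 85.7% against 39.3% and ACGTG 71.4% against 60.7%. The median CpG was 23.5 in the windows of called genes and 19 in the others. The member windows also held more CpG, with a median of 20.5 against 17, and its part in the motif shares was not tested. A match shows only that the letters are present.

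Knockdown of Fbxl19 is the comparison the series was made for, and the fit of group means gave no call on the list. With both hairpins averaged against shControl, 0 of the 32 genes were called by limma, as against 0.0726% of all genes, and 5 of the 32 had an unadjusted p under 0.05. Of the 32, 28 lay above 0, against 49.1% of all genes, with a median of 0.37 against -0.0043 over all genes. Without shControl replicate 1, 20 lay above 0 with a median of 0.19, and without shControl replicate 2, 31 with 0.60. The largest differences were those of Ddit4 (1.77 ± 0.36, 4 arrays against 2, adjusted p = 0.170), Bnip3 (1.64 ± 0.64, adjusted p = 0.549), Ndrg1 (1.18 ± 0.66, adjusted p = 0.673) and Bhlhe40 (1.06 ± 0.85, adjusted p = 0.767). These sizes rest on the level of the shControl arrays. Without shControl replicate 1, Bnip3 had 0.76, Ndrg1 0.73, Bhlhe40 0.23 and Ddit4 1.29, and without shControl replicate 2 they had 2.52, 1.63, 1.89 and 2.24. Adm had 1.05, Aldoc 0.90, Slc2a1 0.63 and Vegfa 0.60. At the other end lay Ldha (-0.08), Gapdh (-0.020), Pkm (-0.018) and Hk2 (-0.018), all within their errors of 0. All 4 knockdown arrays stood above both shControl arrays for 3 genes, Ddit4, Slc2a1 and Higd1a, a share close to the 9.53% of all genes.

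On the arrays, Ddit4 stood between 9.34 and 10.58 on the knockdown arrays and at 7.82 and 8.78 in shControl. Bnip3 on the replicate 1 knockdown arrays (9.25 and 9.16) lay just under shControl replicate 2 (9.31), which is where its groups overlapped. The actin 3'-to-5' difference also separated the shControl from the knockdown arrays, and its part was not tested.

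Each hairpin was also set against the same shControl arrays, so that the comparisons share them. With shRNA1, 0 of the 32 genes were called (0.242% of all genes) and 5 had an unadjusted p under 0.05 by limma. With shRNA2 also 0 were called and 4 had such a p, where no gene at all was called (0% of 12394 by limma, with 632 genes at an unadjusted p under 0.05). With a fit of shRNA2 and shControl alone, 1 of the 32 was called, Ddit4, against 0.323% of all genes. A fit of the undifferentiated arrays with the replicate number as a block, added after the data were seen, changed these calls to 6 with shRNA1 (3.49% of all genes) and 7 with shRNA2 (0.799%). Ddit4, Bnip3, Adm, Aldoc and Bhlhe40 were called with each hairpin, Ndrg1 with shRNA1, and P4ha2 and Plod2 with shRNA2. Ddit4 had 1.61 ± 0.42 with shRNA1 and 1.92 ± 0.42 with shRNA2, Bnip3 1.76 ± 0.74 and 1.52 ± 0.74, Adm 0.99 and 1.10, and Bhlhe40 1.05 and 1.07. Ndrg1 had 1.66 and 0.70 and Aldoc 1.12 and 0.68. Between the hairpins 0 members were called, against 0.105% of all genes, and 1 (Pfkm) had an unadjusted p under 0.05, with -0.37 ± 0.14 for Pfkm and -0.96 ± 0.76 for Ndrg1 (shRNA2 minus shRNA1, limma adjusted p = 0.826 for Pfkm). The median of the 32 genes was 0.35 with shRNA1 and 0.43 with shRNA2. Without shRNA1 replicate 2 the former was -0.072, and without shRNA2 replicate 2 the latter was 0.068. Of other probe sets, a dim one of Aldoc had 0.08 and one of Ndrg1 0.38 with both hairpins averaged.

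Compared within a replicate number, the knockdown differences of Ddit4 and Bnip3 were alike. The 2 hairpins averaged 1.78 above shControl for Ddit4 within replicate 1 and 1.75 within replicate 2, and 1.66 and 1.62 for Bnip3. Aldoc had 0.80 and 1.00, Slc2a1 0.39 and 0.87, P4ha2 0.48 and 0.55, P4ha1 0.41 and 0.56 and Pfkp 0.41 and 0.58. For other genes the difference was larger within replicate 2. Vegfa had 0.01 and 1.20, Pdk1 -0.11 and 1.03, Ndrg1 0.61 and 1.74, Adm 0.66 and 1.43, and Bhlhe40 0.76 and 1.36. The shControl replicate 2 array of Pdk1 was its lowest undifferentiated one (9.88). Glycolytic enzymes such as Aldoa (0.05 and 0.03), Pkm (-0.04 and 0.01) and Gapdh (-0.02 and -0.02) lay near 0 in both.

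With the replicate number as a block over all 8 arrays, a paired fit, Aldoc was the 1 gene of the 32 called (adjusted p = 0.0422), against 0.178% of all genes, and Bnip3 and Ddit4 had adjusted p of 0.0626 and 0.0715. Day 4 did not share the replicate pattern, so a block restricted to the 6 undifferentiated arrays was added after the data and the first blocked result had been seen. It called 9 of the 32 genes, all higher, against 1.94% of all genes. These were Ddit4 (1.77 ± 0.12, limma adjusted p = 0.000142), Bnip3 (1.64 ± 0.11, 0.000142), Aldoc (0.00342), Adm (0.0123), Bhlhe40 (0.0123), Ndrg1 (0.0285), P4ha2 (0.0376), Slc2a1 (0.0399) and Pfkp (0.0477). The differences are the same in all 3 fits, and only their errors change. The count of called genes, 0, 1 or 9, thus depended on how the replicate number was treated.

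**Figure D4:**
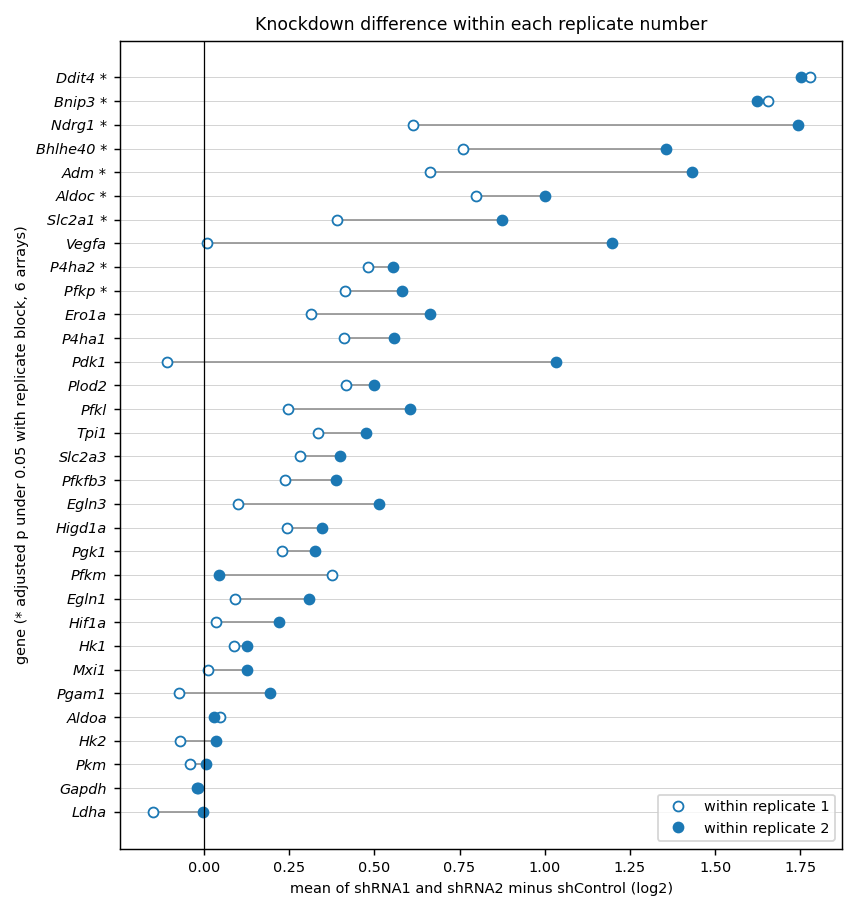
Mean of shRNA1 and shRNA2 minus shControl (log2, x axis) within replicate 1 (open points) and within replicate 2 (filled points) for each of the 32 genes (y axis), with an asterisk where the block over the 6 undifferentiated arrays gave an adjusted p under 0.05. Ddit4 and Bnip3 lie at 1.62 to 1.78 in both, while Vegfa spans 0.01 to 1.20.

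On day 4 of differentiation, the list split by gene rather than moving as a group. Against all 6 undifferentiated arrays, 8 of the 32 genes were called (25%), 6 lower and 2 higher, close to the 22.8% of all genes, and the median was -0.025. Against shControl alone, 5 were called (15.6%), against 16.4% of all genes. These comparisons share the day 4 and shControl arrays.

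The genes that fell include both hexokinases. Hk1 read 8.16 to 8.67 on the undifferentiated arrays and 6.38 and 6.82 on day 4, a fall to 0.291 of its level (-1.78 ± 0.16, 2 arrays against 6, limma adjusted p = 8.09e-05). Hk2, the inducible hexokinase, read 10.11 to 10.54 and then 9.62 and 9.43 (-0.82 ± 0.16, adjusted p = 0.00664). Both day 4 arrays lay below all others for each. Pfkp read 9.58 to 10.68 in undifferentiated cells and 8.20 and 7.63 on day 4 (-2.26 ± 0.26, adjusted p = 0.000297), a 4.78-fold difference. Its relatives Pfkl (0.22 ± 0.24) and Pfkm (0.11 ± 0.11) were not called. Aldoc read 6.10 and 6.76 on day 4, below its undifferentiated range of 7.04 to 8.99 (-1.56 ± 0.32, adjusted p = 0.00827), whereas Aldoa read 12.71 and 12.46 and did not differ beyond its error (0.0011 ± 0.17).

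The list's genes for later steps of glycolysis did not pass the test on day 4. Gapdh had 0.04 ± 0.10, Pgk1 0.05 ± 0.18, Pgam1 -0.08 ± 0.13, Pkm 0.09 ± 0.13, Tpi1 0.30 ± 0.24 and Ldha 0.27 ± 0.19. Nor did the transporters Slc2a1 (0.18 ± 0.23) and Slc2a3 (-0.07 ± 0.25). With errors of this size, smaller differences were not detectable. Outside the list, the phosphoglycerate mutase Pgam2 and the lactate dehydrogenase Ldhc were called lower on day 4, with values given below.

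Among the regulators, Pdk1 and Mxi1 fell, and Pfkfb3 and Hif1a rose. Mxi1 read 6.29 and 7.10 on day 4, under its undifferentiated 7.82 to 8.38 (-1.42 ± 0.21, limma adjusted p = 0.00143). Pdk1 read 9.87 and 9.62, against 9.88 to 11.00 (-0.87 ± 0.22, adjusted p = 0.0188), and its groups nearly touched through shControl replicate 2. Pfkfb3 read 5.84 and 5.68, above 4.16 to 5.39 (1.02 ± 0.31, adjusted p = 0.0442). Hif1a read 11.00 and 10.59, above 9.80 to 10.17 (0.75 ± 0.15, adjusted p = 0.00646). A second probe set of Hif1a rose likewise (0.72), while the other 2, of means 4.69 and 2.72, had 0.17 and -0.22. Other probe sets of Hk1 (-0.60), Pfkp (-0.80) and Mxi1 (-0.65) fell by less than the ones kept, that of Pdk1 by more (-1.06), and those of Pfkfb3 (-0.0013) and Aldoc (-0.02) lay near 0.

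Of the 15 genes called by replicate number, Pfkfb3, Aldoc and Pfkp were also called on day 4, a share near the 22.8% of all genes. The others were not called. Bnip3 read 9.39 and 9.97 (0.15 ± 0.61), Ddit4 9.63 and 9.25 (-0.03 ± 0.34), and Adm 4.11 and 4.20 (-0.45 ± 0.50). P4ha1 read 6.51 and 6.48 (-0.09 ± 0.41), P4ha2 7.07 and 6.90 (0.74 ± 0.38) and Plod2 7.53 and 7.14 (-0.02 ± 0.24). Against shControl alone, Ddit4 had 1.14 ± 0.42, Bnip3 1.25 ± 0.74 and P4ha2 1.09 ± 0.46, also not called. The remaining genes had differences from the undifferentiated mean between Ndrg1 at -0.96 ± 0.62 and Egln1 at 0.29 ± 0.38, with Vegfa at -0.55, Egln3 at -0.52, Bhlhe40 at -0.12, Higd1a at -0.10 and Ero1a at 0.25. Another probe set of Ero1a had -0.41 and another of Vegfa 0.10, both not called.

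The call of Pfkfb3 was the least stable on day 4. It was lost without either shControl array, either day 4 array, shRNA1 replicate 1 or shRNA2 replicate 1, with values of 0.85 to 1.15 and adjusted p of 0.0536 to 0.154, and with trend and robust settings (0.0539). Aldoc lost its call without day 4 replicate 1 (-1.23, adjusted p = 0.058) and Pdk1 without day 4 replicate 2 (-0.75, 0.0868). Against shControl, where Hk1, Hk2, Pfkp, Mxi1 and Hif1a were called, the last 4 lost their call without shControl replicate 2 (Hk2 -0.68, Pfkp -1.67, Mxi1 -1.26, Hif1a 0.66). Hk2 also lost it without day 4 replicate 2 (-0.74), and Hif1a with the mean of its probe sets (0.34, adjusted p = 0.103) and with only day 4 and shControl in the fit (0.0587).

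**Figure D5:**
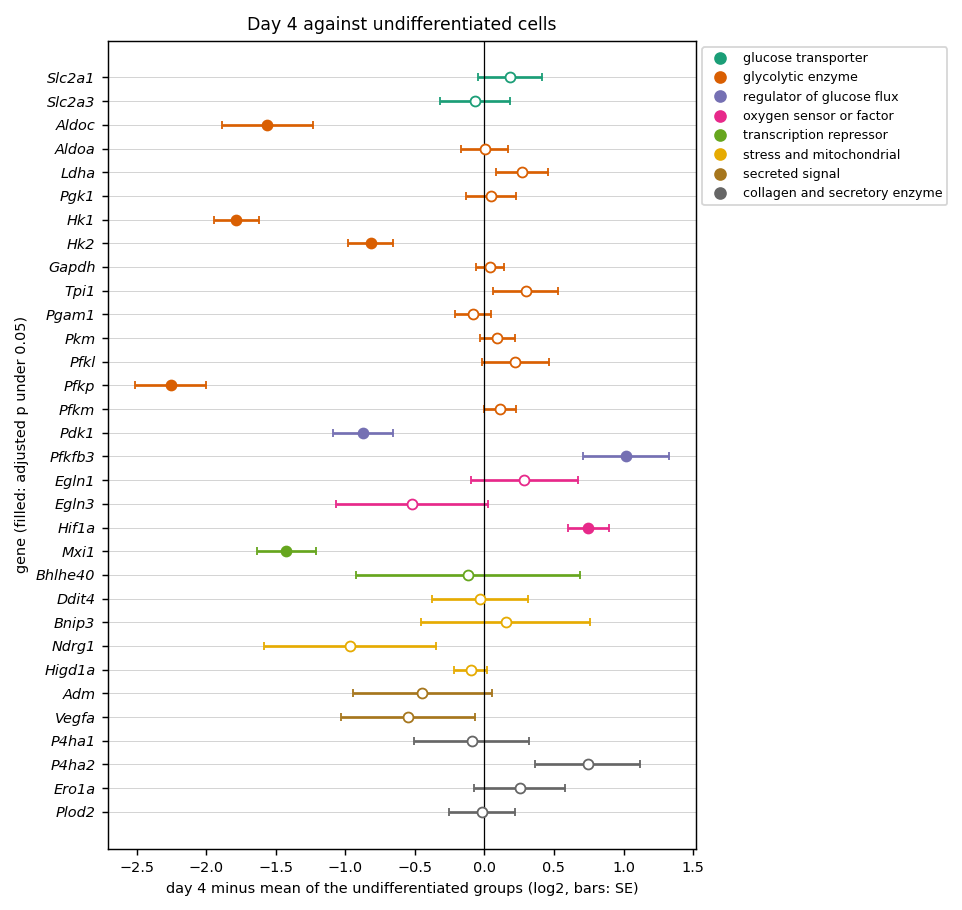
Day 4 minus the mean of the undifferentiated groups (log2, x axis; bars are the SE) for the 32 genes (y axis), coloured by role, with filled points at an adjusted p under 0.05. The filled points are Pfkp, Hk1, Aldoc, Mxi1, Pdk1 and Hk2 on the lower side and Pfkfb3 and Hif1a on the higher side.

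The rest of the pathway was read through further lists of pathway genes. Among 37 measured of 42 further HIF targets, 4 were higher on replicate 2 and none was lower, against 0.863% of all genes called higher. Their median was 0.20, and 29 of 37 lay above 0, against 52.8% of all genes. These further lists, too, were chosen with earlier results of these data known. Ccng2, a cyclin that restrains the cell cycle, was higher by 1.54 ± 0.13 (limma adjusted p = 0.00102), the secreted hormone Stc2 by 1.01 ± 0.12 (0.00579), the transglutaminase Tgm2 by 0.94 ± 0.11 (0.00579) and the glycogen-targeting subunit Ppp1r3c by 0.66 ± 0.11 (0.0282). Ccng2 read 5.83 and 6.99 in shControl, 6.71 and 8.34 with shRNA1, and 6.24 and 8.08 with shRNA2. Of 15 further genes of glycolysis and neighbouring steps, 1 was higher, the phosphoglucomutase Pgm1 (0.76 ± 0.13), with a median of 0.07. That list also holds Fbp1 and Fbp2, whose enzymes act in gluconeogenesis, the reverse direction. Of 13 regulators of HIF, 0 were called and 1 had an unadjusted p under 0.05 (limma), with a median of 0.08. Of 9 further glucose and lactate carriers likewise 0 were called and 1 had such a p, where the lactate exporter Slc16a3 had 0.66 ± 0.14 (adjusted p = 0.0726).

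With both hairpins against shControl, 0 genes of these 4 lists were called by limma. The median was 0.07 for the HIF targets, 0.21 for the list around glycolysis, -0.09 for the HIF regulators and 0.07 for the carriers. In the same order, 6, 2, 2 and 1 of their genes had an unadjusted limma p under 0.05. On day 4 against the undifferentiated arrays, 7 of the 37 HIF targets rose and 7 fell, where 22.8% of all genes were called. Igfbp3, a carrier of insulin-like growth factors, rose by 3.57 ± 0.13 (adjusted p = 7.83e-07), while the uridine phosphorylase Upp1 changed by -2.38 ± 0.24 and Tgm2 by -2.37 ± 0.35. Of the 13 HIF regulators, 2 rose and 2 fell, a share not far from that of all genes, among them Epas1, which encodes another oxygen-regulated HIF subunit (-0.96 ± 0.11, adjusted p = 0.000288), and Cited2, a competitor for the HIF coactivator (0.62 ± 0.14, adjusted p = 0.0114). Of the carriers, Slc16a3 rose by 1.42 ± 0.30 and the mitochondrial pyruvate carrier Mpc1 changed by -1.46 ± 0.34. Among the 15 further genes around glycolysis, 0 rose and 4 fell, beside 22.8% of all genes called. These 4 include Pgam2 (-2.06 ± 0.23), Ldhc (-0.67 ± 0.16) and Fbp2 of gluconeogenesis (-1.14 ± 0.11).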

How the data were processed

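Gene expression was measured on 8 arrays of mouse J1 cells in 4 groups of 2. The deposited log2 values, 1 per probe set, were made by the authors with RMA (background correction, quantile normalization and probe summary) per the submitters' processing notes. The RMA version, and joint or separate normalization of arrays, is not given in the sources used here. A Cy3 dye appears in the labels although the array is an Affymetrix one. Of 22690 probe sets, 20393 had a single symbol, and per gene the one with the highest mean was kept, giving 12394 genes. RefSeq identifiers matched for 20364 probe sets.

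A mean per group was fitted over all 8 arrays with limma 3.58.1 in R 4.3.3 (lmFit, eBayes), leaving 4 residual degrees of freedom. For replicate 2 against replicate 1, the 6 undifferentiated arrays were fitted with group and replicate number, leaving 2. A call required a Benjamini-Hochberg p under 0.05 over all 12394 genes, and errors are moderated SE. On simulated arrays with 200 changed genes the replicate comparison recovered 64.6% of 2-fold and 95.2% of 4-fold changes, with 4.35 false calls on average. For both hairpins the shares were 76.4% and 96.8%, with 8.3 false calls, and for day 4 against undifferentiated cells 79% and 97.6%, with 8.1. The simulated noise was independent between arrays, without the replicate differences that the real undifferentiated groups share. These figures may therefore not hold for the real arrays.

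The members and gene lists were chosen with earlier results of these data known. Every measured member is named, with values per array for called members and for the 4 largest rises and falls of a comparison, and up to 3 members of each further list. Replicate numbers were checked for pairing by correlating replicate differences across genes: 0.26, 0.23 and 0.50 between the undifferentiated groups, and 0.07, -0.02 and -0.08 with day 4. They were therefore taken to pair the undifferentiated arrays only, and day 4 is also another cell state. This choice was made on the same arrays that the replicate comparison then tested. The correlations are thus no independent support for that comparison. The alternatives tried were averaging the probe sets of a gene, every probe set, eBayes with trend and robust settings, dropping the 30% of genes with the lowest means, only the groups compared, centred or requantiled arrays, the replicate block, and leaving out each array. Read depth does not apply to arrays; how many there are sets the precision.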

Additional observations from a re-analysis of the deposited data

Results flagged for a closer look

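The replicate difference of day 4 differed from that of the undifferentiated groups, by a test of the difference itself, for 14 genes. The day 4 difference minus the undifferentiated one was -3.98 for Bhlhe40, -2.46 for Vegfa, -2.44 for Ndrg1, -1.59 for Ero1a, -1.39 for Slc2a3, -1.32 for Ddit4, -1.31 for Adm and -1.25 for P4ha2 on the log2 scale. It was -1.21 for P4ha1, -1.19 for Pfkp, -1.17 for Bnip3, -1.02 for Pfkfb3, -1.01 for Slc2a1 and -0.98 for Plod2. The test was chosen after the data were seen and rests on 1 day 4 pair, so its error comes wholly from the spread among the undifferentiated pairs.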

How the results depend on the processing

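Members called on day 4 against undifferentiated cells numbered 6 to 9 under the alternatives run, against 8. With the replicate block over all 8 arrays, members called numbered 1 for both hairpins, 1 for shRNA1 and 11 for day 4 against shControl. With the block over the undifferentiated arrays they numbered 9 for both hairpins, 6 for shRNA1 and 7 for shRNA2, while a fit of only shRNA2 and shControl called 1. Members called by replicate number were 2 with all 8 arrays (median 0.36), 6 with centred and 9 with requantiled arrays. Leaving out 1 array gave 3 to 16 by replicate number (3 without either shControl array, where 1 residual degree of freedom remains; without a shRNA1 or shRNA2 array the shared spread was taken as known, so those counts do not bear on it) and 2 to 6 for day 4 against shControl (2 without shControl replicate 2). It moved the members' median from -0.072 to 0.69 for shRNA1 against shControl, 0.068 to 0.73 for shRNA2 against shControl and -0.27 to 0.33 for shRNA2 against shRNA1. Uncalled values near 0 changed sign. Pdk1 by replicate number was 0.035 with the mean of probe sets and ran from -0.34 to 0.29 with 1 array left out. For both hairpins, centring gave 0.0059 for Gapdh, 0.0080 for Pkm and 0.0080 for Hk2, and requantiling gave 0.0098 for Pkm and 0.018 for Hk2. With 1 array left out, Ldha ran from -0.18 to 0.023, Gapdh from -0.050 to 0.0093, Pkm from -0.10 to 0.067 and Hk2 from -0.17 to 0.13.

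Over all genes, the 112 calls by replicate number were 2 with all 8 arrays, 14 when centred, 24 when requantiled, 321 with trend and robust settings and 7 without either shControl array. The 9 calls of both hairpins were 54 with only the groups compared or without either day 4 array, 22 with the block over 8 arrays, 241 with the block over undifferentiated arrays, 0 without either shControl array, and 1 to 4 without 1 knockdown array. Those of shRNA1 (30) ranged from 2 without either shControl array to 432 with the undifferentiated block, those of shRNA2 (0) up to 99 with it, those of shRNA2 against shRNA1 (13) from 2 to 167, and those of day 4 against shControl (2033) were 1144 with only the groups compared and 1103 without shControl replicate 2. The causes were not tested.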

Other observations

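Genes that take glucose carbon past or around glycolysis were counted beside 0.904% of all genes called by replicate number, 0.0726% by knockdown and 22.8% on day 4. Of 16 measured genes of the citric acid cycle, 0 were called by replicate number (limma; 2 at an unadjusted p under 0.05, median 0.03) and 0 by knockdown (0 at an unadjusted p under 0.05, median -0.04). On day 4 against the undifferentiated arrays, 1 rose, Dlst (0.43 ± 0.13), and 2 fell, Idh3g (-0.48 ± 0.11) and Ogdh (-0.46 ± 0.10). Of 6 genes of the pentose phosphate branch, 0 were called by replicate number, by knockdown or on day 4 (limma; 1, 0 and 1 at an unadjusted p under 0.05), and Taldo1 had 0.25 by replicate number and -0.40 on day 4. Of 7 genes of the pyruvate dehydrogenase complex and its kinases, 0 were called by replicate number (1 at an unadjusted p under 0.05). On day 4 the kinase Pdk4 changed by -1.09 ± 0.20 (adjusted p = 0.00491) and Pdk3 by 0.38 ± 0.12 (adjusted p = 0.0457), beside the fall of Pdk1 given above.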
